A study of Mus musculus with 8 samples.

Results

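Loss of MAFbx was examined in hearts without an infarct, as the difference between the 2 arrays labelled MAFbxKO and sham (KO sham) and the 2 labelled WT and sham (WT sham). These 4 arrays were chosen by their titles and by their genotype and condition labels, out of 8 in the series. The other 4 arrays, 2 WT and 2 MAFbxKO, came from hearts 1 day after permanent ligation of the left coronary artery (myocardial infarction, MI). The same model held them, and they served for the test of whether the KO effect differed between sham and MI. All hearts were from mice, and total RNA was measured on Affymetrix Mouse Gene ST arrays as log2 expression levels. The labels give no age, sex or strain, no time after the sham operation and no account of which part of the gene was removed. They do not say in which cells the gene was lost, and the WT arrays carry the further tag LM in their titles, which is not spelled out. Nor is it stated that 2 arrays of 1 group are 2 mice. The p-values therefore describe how much these samples vary, and that variation may be technical only.

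MAFbx, also called atrogin-1, is encoded by Fbxo32 and is the F-box subunit of an SCF-type ubiquitin ligase: it picks the proteins to which ubiquitin is attached, and these are then degraded by the proteasome. It is made mainly in skeletal and heart muscle, is switched on by FoxO transcription factors when muscle wastes, and together with the ligase MuRF1 (Trim63) is the usual marker of muscle atrophy. Proteins reported as its targets include calcineurin, MyoD and the translation factor subunit eIF3f. The series addresses what this ligase does in the heart after infarction, and the sham hearts show the genotype difference before that injury.

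The KO sham arrays were the least alike of the 4 groups. Their levels correlated across genes at r = 0.9909, against 0.9931 to 0.9962 in the other groups, and 174 genes (0.873%) were over 2-fold apart, against 21 to 63. Array medians over all 35556 probes were between 5.004 and 5.2534, with KO sham replicates 2 and 1 at these ends. Genes with large gaps between the KO sham arrays included Alb, Mup3, Myl7 and Car3.

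Of 19938 genes tested, 6 (0.0301%) changed between KO sham and WT sham at an adjusted p under 0.05 in limma, 5 lower (0.0251%) and 1 higher (0.00502%). The falls were Fbxo32 itself, the skeletal α-actin gene Acta1, the atrial natriuretic peptide gene Nppa, the complement regulator Cd59a and the secreted angiopoietin-like factor Angptl7. The rise was the small nucleolar RNA Snord14e. None of the 6 was over 2-fold apart between the KO sham arrays. Without adjustment 1017 genes (5.1%) had a p under 0.05, 475 of them higher (2.38%) and 542 lower (2.72%). Over all genes 49.1% lay above 0, and the median difference was -0.004 on the log2 scale. The count of calls depended on single arrays. It was 34 without KO sham replicate 2, 13 without KO sham replicate 1, 11 without WT sham replicate 1 and 3 without either WT MI array. Whichever array was left out, Fbxo32 stayed between -4.09 and -3.60, Acta1 between -3.18 and -2.87 and Cd59a between -2.11 and -1.71. Leaving out either array of the same MI group gives the same sham result, so those fits are not separate checks.

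**Figure D1:**
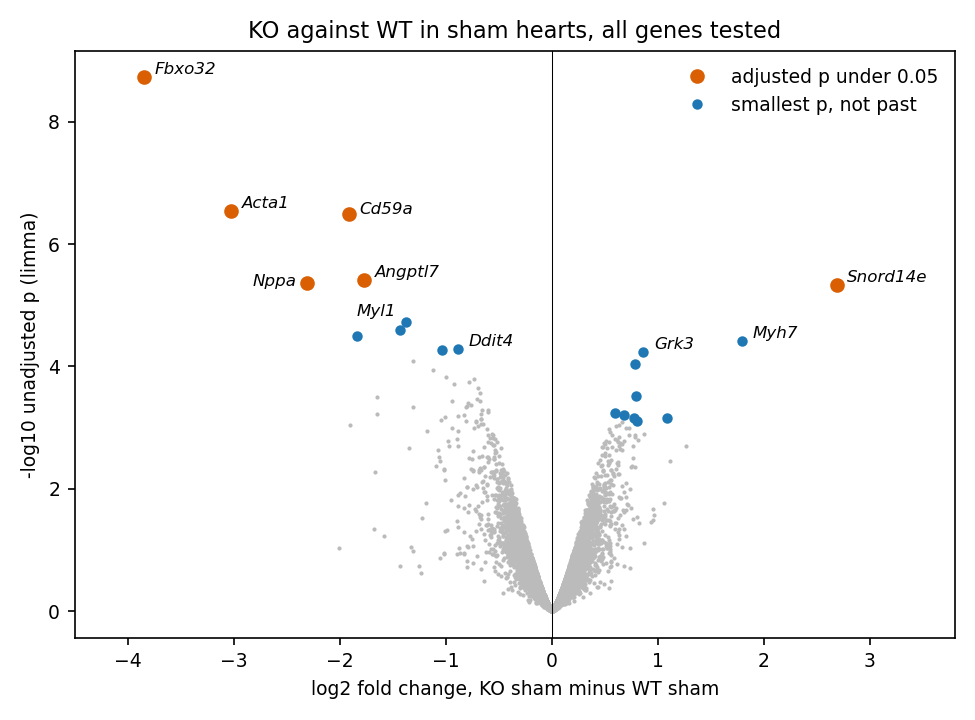
Each point is 1 of 19938 genes, with the log2 fold change of KO sham over WT sham on the x axis and -log10 of the unadjusted limma p on the y axis. Orange points are the 6 genes past the adjusted threshold, blue points the 14 further genes with the smallest p and no overlap between groups. Fbxo32 lies far from the rest at -3.85, and Snord14e is the only orange point on the right.

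The promoters of 6 of the named genes lower in KO sham are given first, because Acta1, Nppa and Myl9 are textbook targets of serum response factor (SRF), which binds the CArG box. Each window runs from 250 bases before to 50 bases after a RefSeq transcription start (build GRCm38.p6), and is printed 5′ to 3′ on the gene's strand. The windows are chr8:123894726-123895025 (minus strand) for Acta1, chr4:148000472-148000771 (plus) for Nppa and chr2:104095551-104095850 (plus) for Cd59a. Those of Angptl7, Myl9 and Fbxl22 are chr4:148500413-148500712 (minus), chr2:156775214-156775513 (plus) and chr9:66514544-66514843 (minus). Capitals mark an exact CArG box of 10 bases or the M-CAT motif CATTCC, the site of TEAD factors, read on either strand. The exact box is CC, then 6 bases that are each A or T, then GG. Near matches were not counted or marked.
Acta1: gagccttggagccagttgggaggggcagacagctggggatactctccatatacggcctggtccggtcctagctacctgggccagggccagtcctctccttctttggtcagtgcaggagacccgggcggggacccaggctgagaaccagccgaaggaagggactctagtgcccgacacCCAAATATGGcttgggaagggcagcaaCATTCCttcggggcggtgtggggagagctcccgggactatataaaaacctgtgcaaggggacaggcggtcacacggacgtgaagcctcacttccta
Nppa: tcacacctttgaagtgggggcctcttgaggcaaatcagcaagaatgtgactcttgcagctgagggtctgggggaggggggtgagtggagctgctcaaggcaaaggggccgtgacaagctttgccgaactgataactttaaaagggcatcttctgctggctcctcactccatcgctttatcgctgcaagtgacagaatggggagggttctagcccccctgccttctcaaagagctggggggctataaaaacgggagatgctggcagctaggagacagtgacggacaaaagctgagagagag
Cd59a: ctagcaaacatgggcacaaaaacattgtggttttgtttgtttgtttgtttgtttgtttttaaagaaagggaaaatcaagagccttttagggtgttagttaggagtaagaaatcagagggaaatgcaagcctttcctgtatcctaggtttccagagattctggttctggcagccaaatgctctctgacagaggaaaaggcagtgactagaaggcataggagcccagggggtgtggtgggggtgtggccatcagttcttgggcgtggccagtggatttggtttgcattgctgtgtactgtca
Angptl7: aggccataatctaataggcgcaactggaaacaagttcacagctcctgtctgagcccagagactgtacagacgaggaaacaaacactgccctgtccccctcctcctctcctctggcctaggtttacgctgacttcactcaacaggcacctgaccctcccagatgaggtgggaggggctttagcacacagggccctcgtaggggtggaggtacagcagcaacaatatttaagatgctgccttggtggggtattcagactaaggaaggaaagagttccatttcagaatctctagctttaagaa
Myl9: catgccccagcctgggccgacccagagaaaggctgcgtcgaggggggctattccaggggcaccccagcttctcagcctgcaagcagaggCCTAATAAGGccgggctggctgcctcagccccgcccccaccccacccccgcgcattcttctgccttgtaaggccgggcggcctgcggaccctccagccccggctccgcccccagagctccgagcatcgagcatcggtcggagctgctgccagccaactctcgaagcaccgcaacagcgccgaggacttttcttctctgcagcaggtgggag
Fbxl22: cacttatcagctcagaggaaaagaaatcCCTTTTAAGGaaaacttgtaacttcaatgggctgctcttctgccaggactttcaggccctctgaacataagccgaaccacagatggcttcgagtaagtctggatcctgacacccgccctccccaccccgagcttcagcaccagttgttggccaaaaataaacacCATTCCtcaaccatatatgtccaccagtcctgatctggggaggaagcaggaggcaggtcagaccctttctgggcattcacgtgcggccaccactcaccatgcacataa
The Acta1 window holds the CArG box CCAAATATGG, whose first base lies 73 bases before the start, and a CATTCC that begins 46 bases before it. The Myl9 window holds CCTAATAAGG from 161 bases before the start, and the Fbxl22 window CCTTTTAAGG from 222. The windows of Nppa, Cd59a and Angptl7 hold neither marked motif. Those of the lower genes Myl1, Fmod and Ddit4, not printed, hold no exact CArG box. Among further windows scanned, those of Actc1 and Cnn2 hold an exact CArG box. That of Acta2 holds no exact box but near matches such as ccctatatgg, so a window without a marked box may still hold a variant. An exact CArG box was found in 3 of the 9 windows of the named lower genes and in 0 of 6 of the named higher genes. Over all RefSeq windows of this length it was found in 425 of 27025 (1.57%). The genes were picked by their values in these arrays, and the motif because SRF targets were seen among them. The counts therefore describe these windows and support nothing. CATTCC was found in 3 of 9, 2 of 6 and 3955 of 27025 (14.6%), and TATAAA, also read on both strands and not marked, in 3 of 9, 0 of 6 and 3827 (14.2%). No marked motif overlaps another. A match is a description of the letters in a window and not a bound site.

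Fbxo32 was the check of the labels. Its log2 level was 8.76 and 8.79 in the WT sham arrays and 4.68 and 5.17 in the KO sham arrays. The groups lay far apart, with the larger spread between the KO arrays. The difference was -3.85 (SE 0.18), a 14.4-fold fall (limma, adjusted p = 3.77e-05), and it passed in 19 of 19 alternative analyses with values between -4.09 and -3.60. In MI hearts, where 14 genes (0.0702%) passed between the genotypes, Fbxo32 fell by 2.98 on the log2 scale (adjusted p = 0.00041), and the 2 effects differed by -0.87 (SE 0.25, adjusted p = 0.487). What part of the transcript the probe covers relative to the deletion is not given, so the level left in KO hearts cannot be read as intact message.

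The chromosomal neighbours of Fbxo32 were examined next. The 4 nearest annotated genes, Wdyhv1, Atad2, Klhl38 and Zhx1, lie 0.045, 0.081, 0.124 and 0.134 Mb away and had log2 differences between -0.16 and 0.15, each with an adjusted p of 1.0. Mtss1, a membrane-bending actin regulator 0.817 Mb away, had levels of 7.71 and 7.81 in WT sham and 8.35 in both KO sham arrays. Its difference was 0.59 (SE 0.12, limma adjusted p = 0.302), not past the threshold in sham hearts. In MI hearts Mtss1 rose by 0.98 with genotype (adjusted p = 0.026), and the difference between the 2 effects was -0.39 (SE 0.17, adjusted p = 0.608).

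Acta1 and Nppa belong to the fetal gene programme, a set of genes active in the fetal heart and turned on again in the stressed adult ventricle. Acta1 encodes the skeletal muscle form of sarcomeric actin. It stood at 10.29 and 10.01 in WT sham and at 6.97 and 7.28 in KO sham, without overlap. The difference was -3.02 (SE 0.24), an 8.13-fold fall (limma, adjusted p = 0.00212). The call held in 19 of 20 alternatives (adjusted p 0.000219 to 0.159) and was lost when all 35556 probes were tested one by one, at 0.159.

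Nppa encodes the hormone ANP, made by atrial myocytes and by ventricles under load. Its level was 10.19 and 11.06 in WT sham and 8.11 and 8.52 in KO sham, so both KO arrays were below both WT arrays. The difference was -2.31 (SE 0.25), a 4.95-fold fall (limma, adjusted p = 0.0154). It passed in 13 of 20 alternatives, with adjusted p between 0.00212 and 0.306. The call was lost without KO sham replicate 1 (0.13) and without either WT MI array (0.056), and also with array weights (0.0819), with the 4 sham arrays alone (0.247), with all probes (0.306) and with 2 arrays left out together (0.212).

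The fetal and wall stress list as a whole was split in direction. Of 14 measured genes 2 fell, 0 rose, 7 were above 0 and the median difference was -0.02. Members whose arrays did not overlap were 6 higher and 5 lower, against 16.6% higher and 16.1% lower among all genes. Myh7, the slow β-myosin heavy chain of the same programme, went the other way, with 9.06 and 9.24 in WT sham and 10.84 and 11.04 in KO sham. Its difference of 1.79 (SE 0.25), 3.46-fold, had an adjusted p of 0.076 in limma. It passed in 5 of 20 alternatives (0.0122 to 0.361), among them the fits without either KO MI array (0.0122), with the sham arrays alone (0.0484) and with replicate number as a block (0.0161). In MI hearts Myh7 rose by 1.84 with genotype (adjusted p = 0.0447). Myh6, the fast α-chain that dominates the adult mouse ventricle, had 13.36 and 13.48 in WT sham and 13.10 and 13.31 in KO sham, a difference of -0.21 (adjusted p = 1.0). Nppb, the second natriuretic peptide gene, had 10.10 and 10.31 against 9.97 and 8.87, with an adjusted p of 0.881. Myh6 and Nppb were among genes singled out after their values had been seen, as were the others named so below.

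**Figure D2:**
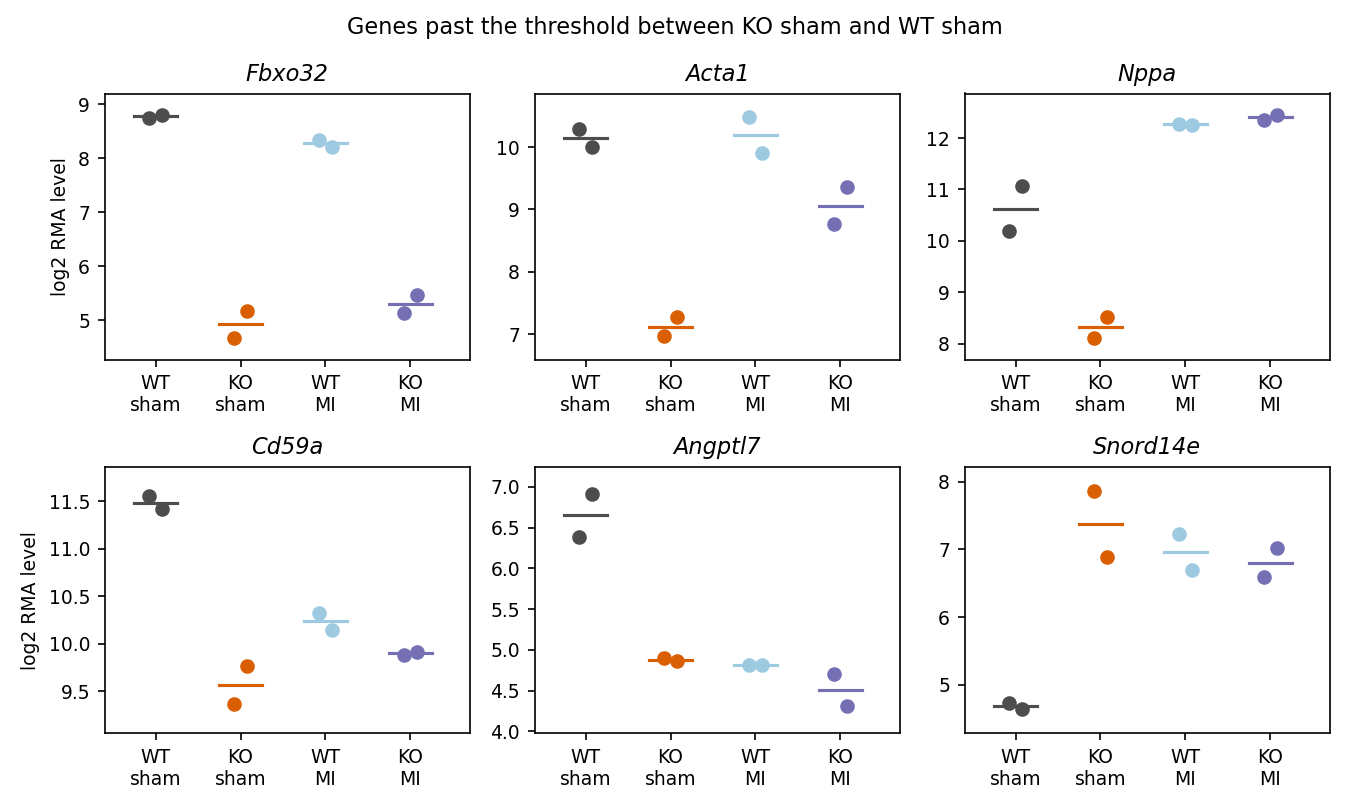
Log2 level (y axis, scale set per panel) of the 6 genes past the threshold in each of the 8 arrays, with the group means as bars. In every panel the 2 KO sham points lie apart from the 2 WT sham points. The MI groups separate by genotype in the same direction for Fbxo32, Acta1, Cd59a and Angptl7 and in the opposite direction for Nppa (12.27 and 12.25 in WT, 12.36 and 12.45 in KO), and they overlap for Snord14e.

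Cd59a encodes the membrane-anchored inhibitor of the complement membrane attack complex. Its levels were 11.55 and 11.41 in WT sham and 9.37 and 9.77 in KO sham. The fall was 1.91 on the log2 scale, 3.77-fold (SE 0.15, limma adjusted p = 0.00212), and the call held in 18 of 20 alternatives (0.000163 to 0.155). It was lost with the sham arrays alone (0.0712) and with all probes (0.155). Cd59b, a second, diverged copy of this gene and named after its values were seen, had 6.08 and 5.58 against 4.37 and 4.66, a difference of -1.31 (adjusted p = 0.116). Cross-hybridisation between the copies could not be assessed, so which copy gives the Cd59b signal is uncertain.

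Angptl7 stood at 6.39 and 6.91 in WT sham and at 4.90 and 4.86 in KO sham, without overlap. The fall was 1.77, 3.41-fold (SE 0.19, limma adjusted p = 0.0154), and it passed in 11 of 20 alternatives (0.0078 to 0.278), the fewest among the 6 called genes. It was lost without WT sham replicate 2 (0.114), KO sham replicate 1 (0.0963), KO sham replicate 2 (0.0501) or either WT MI array (0.0555). Array weights (0.0737), the sham arrays alone (0.156), all probes (0.278) and leaving out 2 arrays together (0.204) also ended the call.

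Snord14e is a box C/D small nucleolar RNA, a class that guides the methylation or processing of ribosomal RNA. It was at 4.73 and 4.65 in WT sham and at 7.86 and 6.89 in KO sham. The rise was 2.69 (SE 0.29), 6.43-fold (limma, adjusted p = 0.0154). It passed in 14 of 20 alternatives (0.00539 to 0.323), but not without WT sham replicate 1 (0.0551), WT sham replicate 2 (0.146) or either WT MI array (0.0526), nor with the sham arrays alone (0.156) or all probes (0.323). Hspa8, the host gene of Snord14e, had a difference of -0.11 (SE 0.16, adjusted p = 1.0). Among 54 small nucleolar RNAs, a list made by name after values had been seen, 40 were above 0, 1 rose and the median was 0.15. Their arrays did not overlap in 16 members higher in KO (29.6%, against 16.6% of all genes) and in 1 lower.

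Beyond these 6, the genes with the smallest p in each direction and no overlap between groups did not reach the threshold. Among the lower ones, Myl1, a fast skeletal essential myosin light chain, had 7.55 and 7.47 against 6.09 and 6.18, a difference of -1.37 (SE 0.18, limma adjusted p = 0.0533). Myl9, the regulatory light chain of smooth muscle myosin, had 8.13 and 8.78 against 6.95 and 7.10 (-1.43, SE 0.19, adjusted p = 0.0634). Both lie near the threshold. Myl1 passed in 7 of 20 alternatives (0.0262 to 0.361), including without either KO MI array (0.0381), and Myl9 in 3 of 20 (0.0078 to 0.454), including without WT sham replicate 1 (0.0078). Fmod, the collagen-binding proteoglycan fibromodulin, had 7.31 and 7.48 against 6.0 and 5.11 (-1.84, SE 0.25, adjusted p = 0.0695). It passed in 5 of 20 (0.00942 to 0.501), including without KO sham replicate 1 (0.012) and without KO sham replicate 2 (0.0412). Fbxl22, another muscle F-box protein, at the sarcomere Z-disc, had 7.15 and 7.22 against 6.11 and 6.20 (-1.03, SE 0.15, adjusted p = 0.0891). Ddit4, an inhibitor of the growth kinase mTORC1 induced by stress and glucocorticoids, had 8.46 and 8.66 against 7.60 and 7.73 (-0.89, SE 0.13, adjusted p = 0.0891).

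Among the higher ones, Grk3, a kinase that desensitises G protein-coupled receptors, had 6.14 and 6.18 in WT sham and 7.0 and 7.04 in KO sham. The arrays of a group were nearly alike, and the difference was 0.86 (SE 0.13, limma adjusted p = 0.0907). Grk5, a second kinase of that family named after its values were seen, had 8.58 and 8.44 against 9.07 and 9.21 (0.63, adjusted p = 0.316). Scin, an actin-severing protein, had 5.12 and 5.31 against 6.0 in both KO arrays (0.79, adjusted p = 0.123). The metallothionein Mt2, which binds zinc and copper, had 8.74 and 8.52 against 9.37 and 9.26 (0.68, adjusted p = 0.302). Edn3 (the vasoactive peptide endothelin 3), Aim2 (a sensor of cytosolic DNA), Igsf23 and Wdfy1 had differences between 0.78 and 1.09, with adjusted p from 0.26 to 0.302.

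These values were set beside the KO effect in MI hearts, which rests on other arrays. Of the 20 genes named by p, 15 had the same sign in MI, and 11 had it with no overlap between genotypes in either condition. Among the 11 were Acta1, Cd59a, Myl1, Ddit4, Myh7 and the targeted gene Fbxo32 itself. For Acta1 the MI levels were 10.48 and 9.91 in WT and 8.76 and 9.36 in KO, a difference of -1.14 (SE 0.24, limma adjusted p = 0.152). In 4 genes, Nppa, Fbxl22, Grk3 and Mt2, the arrays separated in the opposite direction. The 20 genes had been picked for no overlap in sham. The share of all genes whose MI arrays separate is not given here, so these counts cannot be read as agreement between the conditions. Nppa was at 12.27 and 12.25 in WT MI and at 12.36 and 12.45 in KO MI (0.14, SE 0.25), and Grk3 at 6.54 and 6.38 against 6.05 and 5.85 (-0.51, SE 0.13). The test of the difference between the sham and the MI effect found 0 of 19938 genes (0.0%) past the threshold in limma, with 1637 (8.21%) at an unadjusted p under 0.05. The smallest adjusted value among the named genes was 0.161, for Nppa (-2.45, SE 0.35), Cd59a (-1.57, SE 0.22), Grk3 (1.37, SE 0.18) and Snord14e (2.84, SE 0.41). For Acta1 it was 0.256 (-1.89, SE 0.34). Without WT sham replicate 1, 3 genes passed this test of the difference. Across all genes the KO effects in sham and in MI correlated at r = 0.0339, a description over genes that are not independent.

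**Figure D3:**
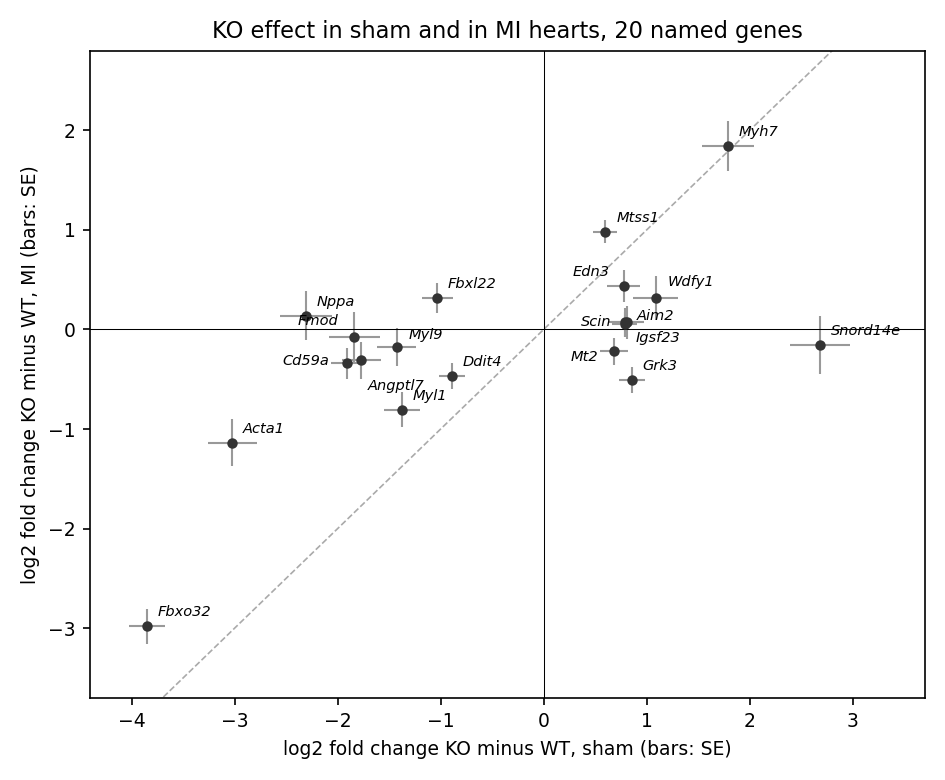
The 20 genes named by p, with the log2 KO effect in sham hearts on the x axis and in MI hearts on the y axis (bars, SE from limma), and the line of equal effects dashed. Fbxo32, Myh7 and Mtss1 lie on the same side in both conditions, while Nppa and Snord14e lie near 0 on the y axis.

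Around the ligase itself, Fbxo32 was the only gene past the threshold in the 2 lists of ligases and of SCF partners. Of 23 muscle ubiquitin ligases 1 fell, which was Fbxo32, 0 rose and the median was -0.05. Trim63, which encodes MuRF1 and was singled out after its values were seen, had 9.44 and 9.33 in WT sham and 9.14 and 9.64 in KO sham, overlapping, with a difference of 0.00 (SE 0.17). The 13 genes of the SCF core and its partner enzymes had 0 calls (0 at an unadjusted p under 0.05), a median of 0.01 and differences between -0.15 for Cdc34 and 0.26 for Skp2, the substrate receptor of another SCF ligase. Of 13 genes whose proteins are reported targets of MAFbx, 0 passed, 1 had an unadjusted p under 0.05 and 7 had lower KO arrays without overlap (53.8%, against 16.1% of all genes), with a median of -0.09. Nfkbia, the NF-kB inhibitor, was the lowest of them at 8.59 and 8.88 against 8.54 and 8.14 (-0.39, adjusted p = 0.947), and Chmp2b, a membrane-sorting subunit, the highest at 0.22. RNA levels do not show how much of these proteins was present.

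Proteasome genes lay below 0 in KO sham replicate 1 and not in KO sham replicate 2. Of 31 subunits 3 were above 0, 10 had lower KO arrays without overlap (32.3%, against 16.1% of all genes), 2 had an unadjusted p under 0.05 and 0 passed, with a median of -0.10. That median was 0.06 without KO sham replicate 1 and -0.27 without KO sham replicate 2, and the mean deviations of the list from WT sham were -0.26 and 0.04 in the 2 KO arrays. The catalytic subunit Psmb5 had 11.31 and 11.37 against 10.99 and 11.10 (-0.30, adjusted p = 0.935). FoxO target genes (24), autophagy and lysosome genes (28), NF-kB pathway genes (22) and calcineurin and NFAT genes (16) had 0 calls each, with medians of 0.00, -0.04, 0.01 and 0.01 and 3, 0, 1 and 0 members at an unadjusted p under 0.05. The calcineurin-responsive gene Rcan1 was at 9.37 and 9.45 against 9.72 and 9.79 (0.34, adjusted p = 1.0). Of 31 oxidative phosphorylation genes 26 were below 0, with a median of -0.12, 0 calls and 1 member at an unadjusted p under 0.05. The median was -0.02 without KO sham replicate 1 and -0.17 without KO sham replicate 2.

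**Figure D4:**
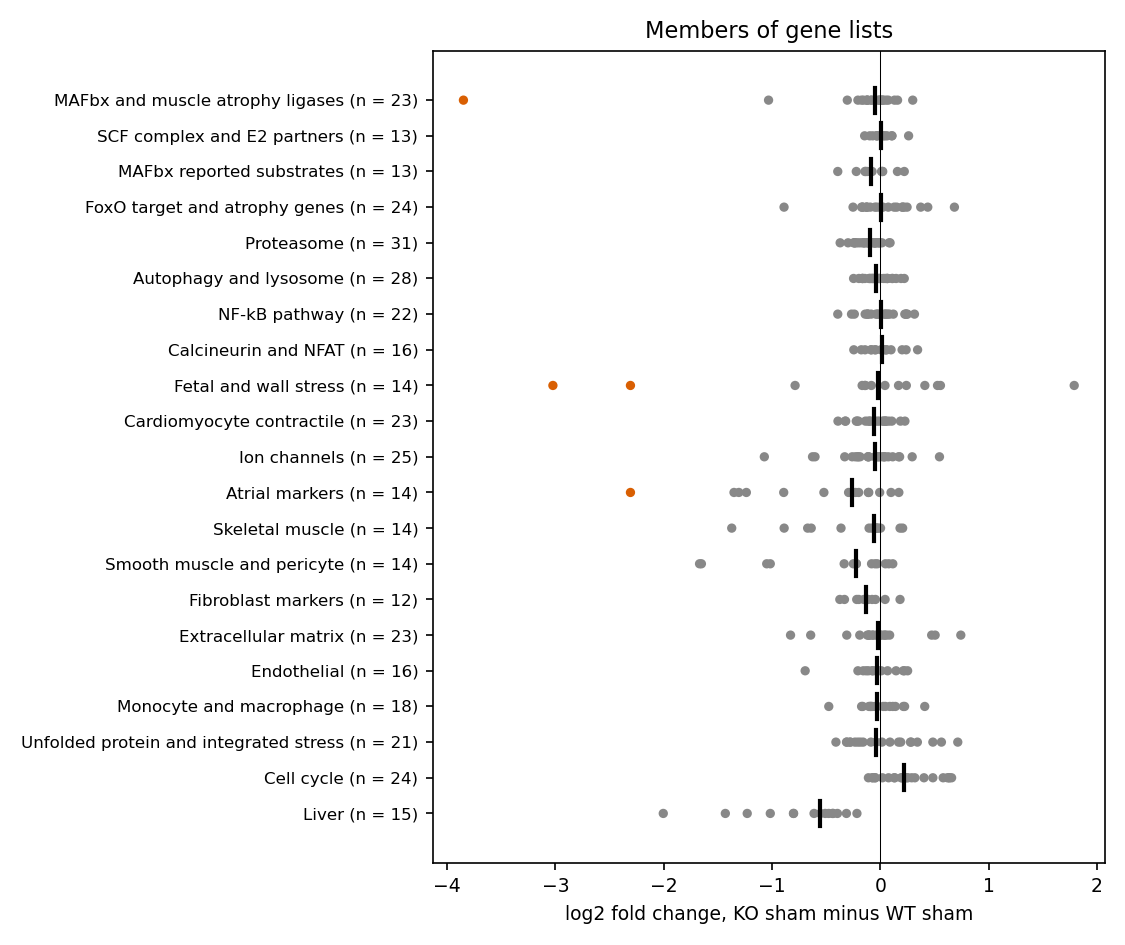
Log2 fold change of KO sham over WT sham (x axis) for every measured member of 21 gene lists, 1 line per list, with the median as a black bar and genes past the threshold in orange. Among the lists named beside the points, the liver median lies at -0.55, the atrial at -0.26, the smooth muscle at -0.22 and the cell cycle at 0.22, and lists not drawn, such as MHC class II at -0.29, also lie away from 0.

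Contractile genes of cardiomyocytes gave the check of the labelled tissue. All 23 had mean levels of at least 9.31 (Tcap), and detection calls were not used here. Of them 0 passed, 2 had an unadjusted p under 0.05, both lower, and 9 had lower KO arrays without overlap (39.1%, against 16.1% of all genes), with a median of -0.05. Cardiac α-actin, Actc1, the main actin of the adult heart, had 13.90 and 13.94 against 13.54 and 13.65 (-0.32, adjusted p = 0.873), so the difference in Acta1 was not matched in size by its cardiac counterpart. Among 25 ion channel genes 0 passed and 4 had an unadjusted p under 0.05, with a median of -0.05. Of the 4 members with the smallest p, the potassium channel subunit genes Kcnip2 and Kcnd2 had differences of -0.60 (adjusted p = 0.471) and -0.63 (0.608), and Kcnv2, of the same class, one of 0.55 (0.937). Scn4b, a sodium channel β-subunit, had 8.04 and 7.29 against 6.55 and 6.64 (-1.07, adjusted p = 0.409).

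Most genes of the smooth muscle and pericyte list lay lower in KO sham, with 0 past the threshold. Of 14 measured, 11 were below 0 and 9 had lower KO arrays without overlap (64.3%, against 16.1% of all genes), with a median of -0.22 (-0.13 without WT sham replicate 2). The other 3 were above 0, the highest of them Rgs5 at 0.11, and 2 members had higher KO arrays without overlap (14.3%, against 16.6% of all genes). The 4 with an unadjusted p under 0.05 were all lower. Acta2, smooth muscle α-actin, had 10.87 and 11.39 against 9.38 and 9.58 (-1.65, adjusted p = 0.302). Myh11, the smooth muscle myosin heavy chain, had 7.77 and 8.50 against 7.03 and 7.15 (-1.05, adjusted p = 0.302), and Tagln (-1.02) and Cnn1 (-1.67) lay in the same direction. Cnn1 passed without WT sham replicate 1, at -2.61 (adjusted p = 0.00583). The summed linear level of the list was 14500 and 15900 in WT sham and 11400 and 13200 in KO sham. In bulk tissue, fewer cells of a type and less RNA per cell cannot be told apart.

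Genes known as targets of SRF were gathered in a list after their values had been seen, so the count describes them and supports nothing. Of 33 measured, 26 were below 0, 2 fell (Acta1 and Nppa), 22 had lower KO arrays without overlap (66.7%, against 16.1% of all genes) and the median was -0.33, against -0.13 in MI hearts. Srf itself was at 9.42 in both WT sham arrays and at 8.95 and 8.93 in KO sham (-0.48, adjusted p = 0.391). The actin-binding genes Pdlim7 (-0.78, adjusted p = 0.191), Cnn2 (-0.68, 0.269) and Tpm2 (-0.65, 0.316) were lower with no overlap. The 7 members above 0 included the immediate early gene Fos, at 5.10 and 5.30 against 5.47 and 5.53. Smooth muscle members are part of this list too, and the part of smooth muscle cells in its shift was not tested.

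A second group noticed in the same way holds genes of cartilage, tendon and valve matrix. Of 30 measured, 23 were below 0, 1 fell (Angptl7), 14 had lower KO arrays without overlap (46.7%, against 16.1% of all genes) and the median was -0.19. Comp, a pentameric matrix protein, had 6.37 and 6.64 against 5.64 and 4.74 (-1.31, adjusted p = 0.292), and it passed without KO sham replicate 1 (-1.76, adjusted p = 0.0301). Chad, chondroadherin, had 6.35 and 7.33 against 5.61 and 4.26 (-1.90, adjusted p = 0.316). Clec3a (-1.65, adjusted p = 0.26) passed without WT sham replicate 1 (-2.15, 0.0262), and Ucma (-0.93, 0.191), Wif1 (-0.94, 0.327) and Chrdl1 (-0.88, 0.302) were lower with no overlap. How much valve tissue each sample held is not given in the labels, and its part in these values was not tested. In the MI groups the list's mean deviation from the WT sham mean was as low in WT (-0.48 and -0.37) as in KO (-0.55 and -0.41), against -0.36 and -0.58 in KO sham.

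Markers of other tissues moved with single arrays. The atrial list of 14 genes, which includes Nppa, had 12 members below 0 and a median of -0.26. Its summed linear level was 7210 and 10100 in WT sham and 6240 and 6320 in KO sham. Myl7, the atrial regulatory light chain, overlapped, with 6.09 and 8.80 against 7.86 and 4.56, and Myl4, the atrial essential chain, with 8.26 and 10.58 against 9.15 and 7.08. Myl7 and Myl4 were thus high in WT sham replicate 2 and low in KO sham replicate 2. Nppa shared this order between the WT arrays but not between the KO arrays. The part of atrial tissue in the fall of Nppa was not tested. The list's median was -0.53 without KO sham replicate 1 and -0.13 without WT sham replicate 2.

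The 14 skeletal muscle genes, which include Myl1, had a summed level of 8730 and 9550 in WT sham and 5340 and 6260 in KO sham. Ckm, the creatine kinase of both heart and skeletal muscle, makes up most of that sum, so the sum mainly follows Ckm. It had 12.98 and 13.10 against 12.24 and 12.50 (-0.67, adjusted p = 0.302), Casq1 -0.89 (0.388) and Myh1, a fast skeletal myosin, 4.57 and 4.23 against 3.96 and 3.57. The list's median was -0.06, and it was -0.26 without KO sham replicate 1 and 0.02 without KO sham replicate 2. Of the 14 genes 4 had an unadjusted p under 0.05, all lower, and 0 passed. In all 11 were below 0 and 3 above, Mylpf (0.21), Tnni2 (0.18) and Tnnc2 (0.002). The fast skeletal genes Actn3 (-0.02) and Myh4 (-0.04) lay close to no difference. Whether skeletal muscle carried over in a dissection contributes to Acta1 and Myl1 was not tested.

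Liver-type genes marked KO sham replicate 2. Alb, serum albumin, was at 9.11 and 10.46 in WT sham, 10.005 in KO sham replicate 1 and 5.56 in KO sham replicate 2. The 15 genes of the list lay below 0, with 0 calls, 2 at an unadjusted p under 0.05 and a median of -0.55, which was 0.19 without KO sham replicate 2 and -1.22 without KO sham replicate 1. Without KO sham replicate 1, Alb had a difference of -4.22 and Ttr, the thyroid hormone carrier transthyretin, one of -2.20, both with an adjusted p of 0.0301. The mean deviation of the list in the 4 MI arrays lay between -1.61 and -1.36, close to that of KO sham replicate 2, -1.67.

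**Figure D5:**
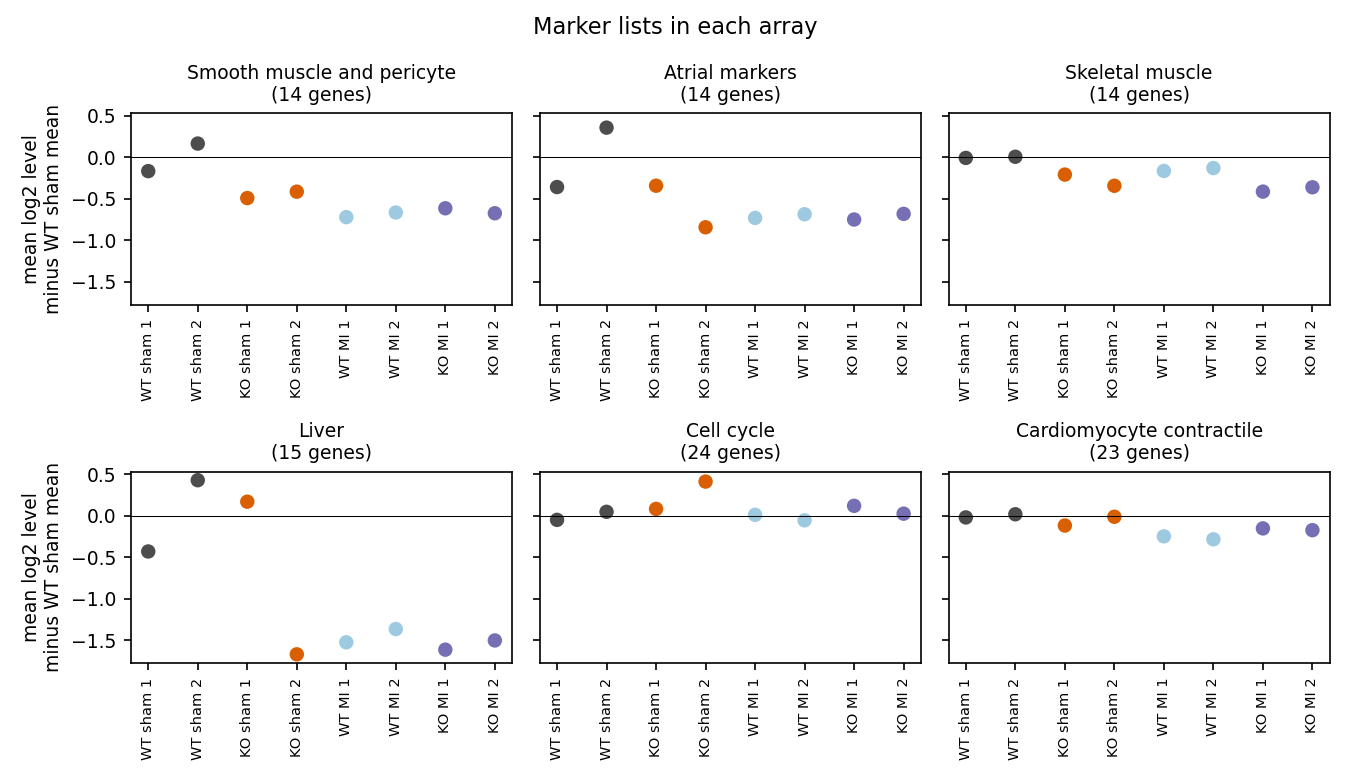
Mean log2 level of 6 marker lists in each of the 8 arrays, relative to the WT sham mean (y axis). The smooth muscle points of both KO sham arrays lie below both WT sham arrays, and the liver panel sets KO sham replicate 2 (-1.67) apart from KO sham replicate 1 (0.17).

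Proliferation genes lay above 0. Of 24 cell cycle genes 19 were above 0 and 11 had higher KO arrays without overlap (45.8%, against 16.6% of all genes), with 0 calls, 4 members higher at an unadjusted p under 0.05 and a median of 0.22. The proliferation marker Mki67 had 5.32 and 5.80 against 5.94 and 6.46 (0.64, adjusted p = 0.804), and the mitotic cyclin Ccnb2 had 5.08 and 5.42 against 5.68 and 6.07 (0.62, adjusted p = 0.533). Most of this shift came from KO sham replicate 2, whose mean deviation was 0.41 against 0.08 in replicate 1. The median was 0.08 without KO sham replicate 2. Signals were low, with 20 of the 24 members below the median gene level, which limits what this list can show.

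Genes of the unfolded protein response and of the integrated stress response, which adjusts amino acid supply, were listed together. Of 21 unfolded protein and stress response genes, 10 were above 0, 0 passed, 5 were higher at an unadjusted p under 0.05 and the median was -0.04. The list was divided after its values had been seen, so the division describes them and supports nothing. The integrated stress members Atf4, Ddit3, Trib3, Asns, Chac1, Psat1, Phgdh, Mthfd2 and Fgf21 lay above 0, from 0.015 (Ddit3) to 0.72 (Mthfd2). The unfolded protein response gene Atf6 also lay above 0, at 0.09. The 11 members below 0 were chaperone and unfolded protein response genes, the lowest Dnajb9 (-0.41). In the amino acid branch Trib3 was at 4.63 and 4.78 against 5.28 and 5.27 (0.56, adjusted p = 0.388), while Psat1 had a difference of 0.48 (0.575) and Mthfd2 one of 0.72 (0.84). Among stress proteins, Hspb1, a small heat shock protein of muscle, had 9.95 and 9.87 against 9.23 and 9.43 (-0.58, adjusted p = 0.377), and Gsta3, a glutathione transferase, 6.37 and 6.53 against 5.75 and 5.79 (-0.68, adjusted p = 0.242).

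Markers of immune and of endothelial cells showed no call in sham hearts. Neutrophil (15 genes), monocyte and macrophage (18), lymphocyte (14) and endothelial (16) lists had 0 calls, with medians of 0.00, -0.03, 0.01 and -0.03 and 1, 0, 0 and 1 members at an unadjusted p under 0.05. Low signals limit what the immune lists can show. In the same order 14, 7, 14 and 1 members lay below the median gene level. Camp, a neutrophil granule peptide, had 4.27 and 4.23 against 4.63 and 4.79 (0.46, adjusted p = 0.548). The 7 genes of MHC class II antigen presentation had 6 members below 0, 4 of them without overlap (57.1%, against 16.1% of all genes), and 0 calls (2 at an unadjusted p under 0.05). Their median was -0.29, and it was -0.16 without KO sham replicate 1 and -0.45 without KO sham replicate 2. H2-Ab1 had 8.87 in both WT sham arrays and 8.08 and 8.42 in KO sham (-0.62, adjusted p = 0.937).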

How the data were processed

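The deposited log2 expression values of 35556 probes on 8 arrays were made by the authors with RMA in Affymetrix Expression Console, as the submitters' processing notes name them. Software versions: not given in the sources used here. RMA as usually run makes the distributions of arrays alike, which would reduce a shift shared by most genes. The platform annotation paired 21789 probes with 1 gene and 1621 with several, and 12146 probes were unlisted and unnamed here. Of those with 1 gene, 21698 matched RefSeq by Entrez ID. The probe with the highest mean over the 8 arrays stood for each gene, which mattered for 999 genes and left 19938, without a filter on low values.

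Tests used limma 3.58.1 under R 4.3.3 (lmFit and eBayes, two-sided) on all 8 arrays with 4 group means, 4 residual and 5.57 prior degrees of freedom, and Benjamini-Hochberg adjustment over all 19938 genes at 0.05. An exact permutation test of 2 against 2 arrays cannot give a p under 0.333. The number of arrays limits the precision. Replicate numbers did not pair the samples (r = -0.0449 between WT and KO deviations), so no block entered the main model.

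Arrays, members and the 49 gene lists (854 of 924 entries measured) were chosen with earlier results of these data known. Lists were described by counts and medians, with no test. Named were Fbxo32, genes past the threshold without overlap, the genes of smallest p filling up to 10 in each direction, the 4 smallest p of each list (or fewer) and the 4 nearest neighbours of Fbxo32. Clone, predicted, Riken and receptor names were left out. Trim63, Nppb, Myh6, Myl7, Car3, Mup3, Hspa8, Tcap, Fos, Srf, Cd59b, Grk5, Comp, Chad, Clec3a, Ucma, Wif1, Chrdl1, Pdlim7, Cnn2, Tpm2 and the SRF, matrix and small nucleolar RNA lists were chosen after values were seen. The CArG motif and the division of the unfolded protein and stress list were also chosen after values were seen. The code was tested on simulated data. Promoter windows came from RefSeq (GRCm38.p6). Python 3.11.15 with matplotlib 3.10.9 drew the figures.

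Alternative analyses changed 1 choice at a time. They left out each array in turn (the remaining array of that group then takes its spread from the others), fitted the sham arrays alone, or took the replicate number as a block. They changed the variance model (intensity trend, robust prior, array weights), the scaling (median centring, cyclic loess) or the features (all probes, the mean of a gene's probes, the lowest 33.3% of genes dropped, genes within 20 Mb of Fbxo32 dropped), or asked for at least a 2-fold change. Leaving out KO sham replicate 1 and WT MI replicate 2 together was added after seeing the data. For the sham comparison, leaving out either array of an MI group gives the same result, and both fits are counted among the alternatives.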

Additional observations from a re-analysis of the deposited data

How the results depend on the processing

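The fall of Fbxo32 kept its direction and stayed past the threshold in every alternative that kept the gene, between -4.09 and -3.60 on the log2 scale. The 6 calls (1 higher, 5 lower) became 12 (2 higher, 10 lower) with an intensity trend, 1 (0 higher, 1 lower) with all probes and 3 (1 higher, 2 lower) with the sham arrays alone. They were 9 (2 higher) when KO sham replicate 1 and WT MI replicate 2 were left out together, chosen after seeing the data. Leaving out 1 array in turn gave 3 to 34 calls, 0 to 20 higher and 3 to 14 lower. The difference between the sham and MI effects had 0 calls, 4 with an intensity trend, 1 with cyclic loess and 0 to 3 when 1 array was left out.

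With the replicate number as a block there were 8 calls, 2 higher and 6 lower. The 6 genes remained and Myh7 (adjusted p = 0.0161) and Myl9 (0.0377) were added. The numbers do not pair the samples, so the block is only an alternative.

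Of 89 further genes rechecked that did not pass, 11 passed in at least 1 alternative. Without KO sham replicate 2 the sign turned for Klhl40, Alb, Myl7 and Trim63, and without WT sham replicate 2 for Myl7 and Trim63. Over the single arrays left out, Klhl40 ranged from -0.06 to 0.66, Alb from -4.22 to 0.22, Myl7 from -2.89 to 0.42 and Trim63 from -0.25 to 0.26. With median centring Trim63, whose value was 0.00, was at -0.02. The cause of these changes was not tested.

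With 2 arrays a group and no detection calls, small differences and low signals are not resolved. Of 49 list medians 34 moved beyond the replicate spread in at least 1 alternative.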
